A study of Mus musculus with 8 samples.

Results

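The 3 genes described here, Mybpc1, Mybpc2 and Mybpc3, encode the myosin-binding protein C family, out of 20660 genes named on the arrays. They were taken as every probe whose RefSeq accession belongs to one of them, and the family was selected on the genotype ratios of these same arrays, so those ratios are given as description with no test. Transcript levels were measured in gastrocnemius and tibialis anterior (TA) of mice heterozygous for Eif6 (Eif6+/-), which carry 1 working copy of the gene for the ribosomal factor eIF6 in every cell, and of wild-type (WT) littermates on a C57BL6 background, aged 8 to 16 weeks. Each of the 8 arrays, 4 per muscle, compared 1 Eif6+/- mouse, labelled with Cy5, with 1 age-matched WT mouse, labelled with Cy3, the animals being paired at random. The dyes were never exchanged, so dye and genotype cannot be told apart within an array, and each muscle took up its own line of 4 positions on 1 slide, so place on the slide cannot be separated from muscle. Eif6 itself was lower in Eif6+/- on all 8 arrays, with a mean log2 ratio of -1.02 ± 0.11 in gastrocnemius and -1.0 ± 0.17 in TA (SD, n = 4 pairs each; adjusted p = 0.0239 and 0.0108).

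Myosin-binding protein C molecules lie in stripes along the thick filament of the sarcomere, where they bind the myosin rod and titin with one end and reach towards actin and the myosin heads with the other. They restrain and tune the cycling of myosin heads. Mybpc1 encodes the slow skeletal form, which despite its name is also made in fast fibres, Mybpc2 the fast skeletal form and Mybpc3 the cardiac form.

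The arrays held 4 probes for the family, 2 for Mybpc1 (A_55_P2165299, the brighter, and A_55_P2008443) and 1 each for Mybpc2 (A_55_P2013665) and Mybpc3 (A_55_P2011862). The Mybpc1 and Mybpc2 probes were well above background in both channels on all 8 arrays, and no spot on any array was marked as saturated. Thus 2 of the 3 members could be followed in each muscle. The Mybpc3 probe was not well above background in either channel on any array: its raw intensity was 47 to 61 in Cy5 over a local background of 41 to 45, and 36 to 45 in Cy3 over 20 to 23. No fold or test is given for this cardiac gene. The per-array ratios of its probe were -0.09, 0.03, 0.27 and 0.13 in gastrocnemius and -0.14, 0.13, 0.24 and 0.18 in TA, at the level of background. Of 7 heart muscle markers, 5 were likewise not kept in either muscle (Tnni3, Nppa, Nppb, Myl7 and Ryr2), and 2, Myh6 and Tnnt2, were kept.

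The sequence just upstream of each gene is shown because the 3 members differed in the readouts below. In the mean of both genotypes, the first was higher in TA than in gastrocnemius and the second lower. The third was not detected. All 3 genes matched an entry of the RefSeq promoter table (build GRCm38.p6). Each stretch runs 5′ to 3′ on the gene's strand and stops before the first base of any annotated transcript of the gene. Capitals mark matches on either strand to an E-box (CANNTG), the MCAT element (GGAATG), the TATA box (TATAAA), or the MEF2 motif and the CArG box, both named only. Mybpc1 and Mybpc2 are read from the minus strand and Mybpc3 from the plus strand.
Mybpc1, chr10:88605230-88605402: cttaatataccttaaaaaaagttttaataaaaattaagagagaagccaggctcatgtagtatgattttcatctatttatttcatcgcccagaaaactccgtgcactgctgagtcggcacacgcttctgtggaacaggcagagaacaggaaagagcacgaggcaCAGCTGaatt
Mybpc2, chr7:44524716-44524919: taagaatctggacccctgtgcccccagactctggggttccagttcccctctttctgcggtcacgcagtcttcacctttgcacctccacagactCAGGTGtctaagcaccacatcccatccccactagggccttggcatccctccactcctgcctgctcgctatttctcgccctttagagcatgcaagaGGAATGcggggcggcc
Mybpc3, chr2:91117894-91118113: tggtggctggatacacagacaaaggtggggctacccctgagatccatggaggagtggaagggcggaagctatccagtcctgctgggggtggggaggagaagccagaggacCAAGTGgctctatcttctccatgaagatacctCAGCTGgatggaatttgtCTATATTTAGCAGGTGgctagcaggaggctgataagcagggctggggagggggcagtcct

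The Mybpc1 stretch of 173 bases held 1 E-box and no match to the other motifs. The Mybpc2 stretch of 204 bases held 1 E-box and 1 MCAT element, the latter present in 10.8% of all 32851 promoters taken at that length. The Mybpc3 stretch of 220 bases held 3 E-boxes and 1 MEF2 motif, which is followed directly by an E-box so that the capitals run together; a MEF2 motif was present in 2.60% of promoters at this length. E-boxes were present in 54.1%, 59.7% and 62.1% of promoters at the 3 lengths. No matches overlapped. GC content was 40.5% for Mybpc1, 58.8% for Mybpc2 and 56.4% for Mybpc3. These are matches of letters only, and no binding was measured.

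Mybpc1 was the member with the larger genotype ratio. In gastrocnemius its brighter probe gave log2 ratios, Eif6+/- over WT, of 2.18, 0.84, 0.95 and 0.89 on pairs 1 to 4, a mean of 1.22 ± 0.64 (SD, n = 4), which is 2.32-fold. All 4 pairs were above 0, and pair 1 lay well apart from the other 3; without it the mean was 0.89. In TA the same probe gave 0.14, 0.08, 0.10 and 0.03, a mean of 0.09 ± 0.05. Every gastrocnemius ratio was thus above every TA ratio. The difference of the means between the muscles, 1.13, belongs to the values on which the family was chosen and was not tested.

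Behind these ratios, the mean level was lowest in WT gastrocnemius. The normalized log2 level of the brighter probe in WT gastrocnemius was 12.93, 13.86, 13.24 and 14.19 on pairs 1 to 4, against 15.10, 14.71, 14.19 and 15.08 in Eif6+/- gastrocnemius. The genotypes did not overlap, but only just: the highest WT and the lowest Eif6+/- value both round to 14.19. In TA the levels were 14.87, 15.01, 14.78 and 14.94 in WT and 15.01, 15.09, 14.89 and 14.97 in Eif6+/-. Eif6+/- gastrocnemius therefore overlapped TA of both genotypes, while WT gastrocnemius lay below all TA samples. In order of mean level, Eif6+/- TA (14.99 ± 0.08), WT TA (14.90 ± 0.10) and Eif6+/- gastrocnemius (14.77 ± 0.43) were neighbours within their spread, and WT gastrocnemius (13.56 ± 0.57) came last.

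The other Mybpc1 probe, assigned to another RefSeq transcript of the gene, gave log2 ratios of 1.97, 0.27, 0.42 and 0.67 in gastrocnemius, a mean of 0.83 ± 0.77 (SD, n = 4). Its direction there was the same on all 4 pairs, and without pair 1 the mean was 0.46. Its log2 levels in gastrocnemius were 11.19, 12.33, 11.74 and 12.52 in WT and 13.15, 12.60, 12.17 and 13.20 in Eif6+/-, so on this probe the genotypes overlapped. In TA it gave -0.45, -0.35, -0.20 and 0.18, a mean of -0.21 ± 0.28, whereas the brighter probe was above 0 on all 4. The probes thus disagreed in sign on TA pairs 1 to 3, so no direction can be given for Mybpc1 in TA. The brighter probe exceeded the other by 0.38 ± 0.19 in gastrocnemius and by 0.29 ± 0.32 in TA.

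The Mybpc2 ratio had the other sign in gastrocnemius and was smaller. In gastrocnemius its log2 ratios were -0.41, -0.33, -0.36 and -0.10, a mean of -0.30 ± 0.14 (SD, n = 4), or 0.812 of the WT level, with all 4 pairs below 0. The log2 levels were 16.62, 16.59, 16.52 and 16.43 in WT and 16.21, 16.25, 16.16 and 16.33 in Eif6+/-, with no overlap of the genotypes. In TA the ratios were -0.11, -0.20, -0.16 and 0.52, a mean of 0.01 ± 0.34, so that 3 pairs were below 0 and pair 4 was above it. On that pair the WT level, 15.68, was the lowest of the 4 WT TA samples, which otherwise lay between 16.03 and 16.23. The ratios of the 2 muscles overlapped. By mean level, WT gastrocnemius (16.54 ± 0.08) came first, then Eif6+/- gastrocnemius (16.24 ± 0.07), with Eif6+/- TA (16.05 ± 0.16) and WT TA (16.03 ± 0.25) last and within each other's spread.

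**Figure D1:**
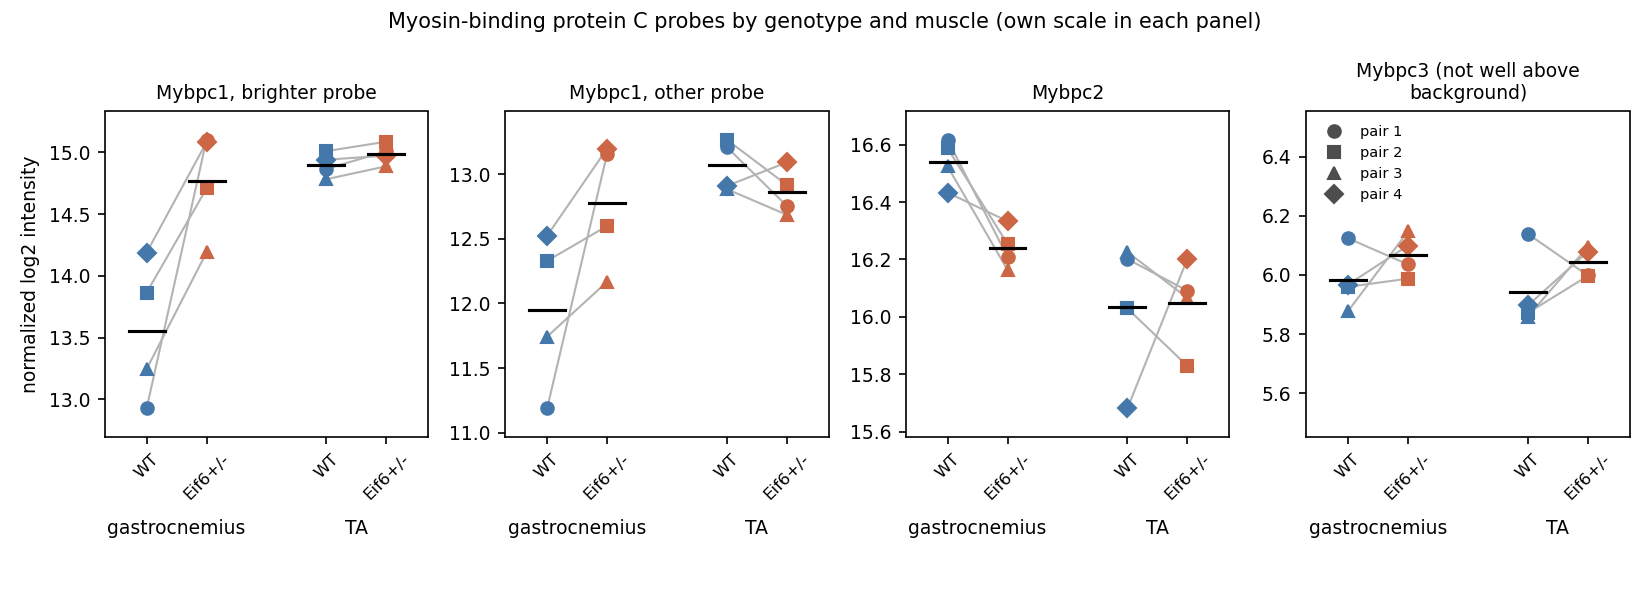
Normalized log2 intensity of the 4 family probes in WT and Eif6+/- mice by muscle; symbols mark pairs 1 to 4, grey lines join the mice of 1 array, black bars are means, and each panel has its own scale. In gastrocnemius every line for both Mybpc1 probes rises and every line for Mybpc2 falls, while Mybpc3 was not well above background.

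The related gene Mybph, which encodes myosin-binding protein H, a shorter thick filament protein, gave ratios with the opposite sign to Mybpc1 in gastrocnemius. Its log2 ratios there were -1.96, -0.66, -1.13 and -1.39, a mean of -1.28 ± 0.54 (SD, n = 4; adjusted p = 0.0286). The size held without pair 3 or pair 4 (-1.34 and -1.25), but the adjusted p became 0.121 and 0.157. In TA they were -0.09, -0.34, 1.93 and 0.05, a mean of 0.39 ± 1.04 (adjusted p = 0.453). Pair 3 set that mean, which is -0.13 without it, and on the same array the summed intensity of the 5 connective tissue markers had a log2 ratio of 2.14 and that of the 4 tendon markers 1.73; their part in the Mybph value was not tested. The difference of the Mybph ratio between muscles did not pass the test (-1.67, adjusted p = 0.636). Mybphl, the other gene of this kind, was not kept in either muscle.

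**Figure D2:**
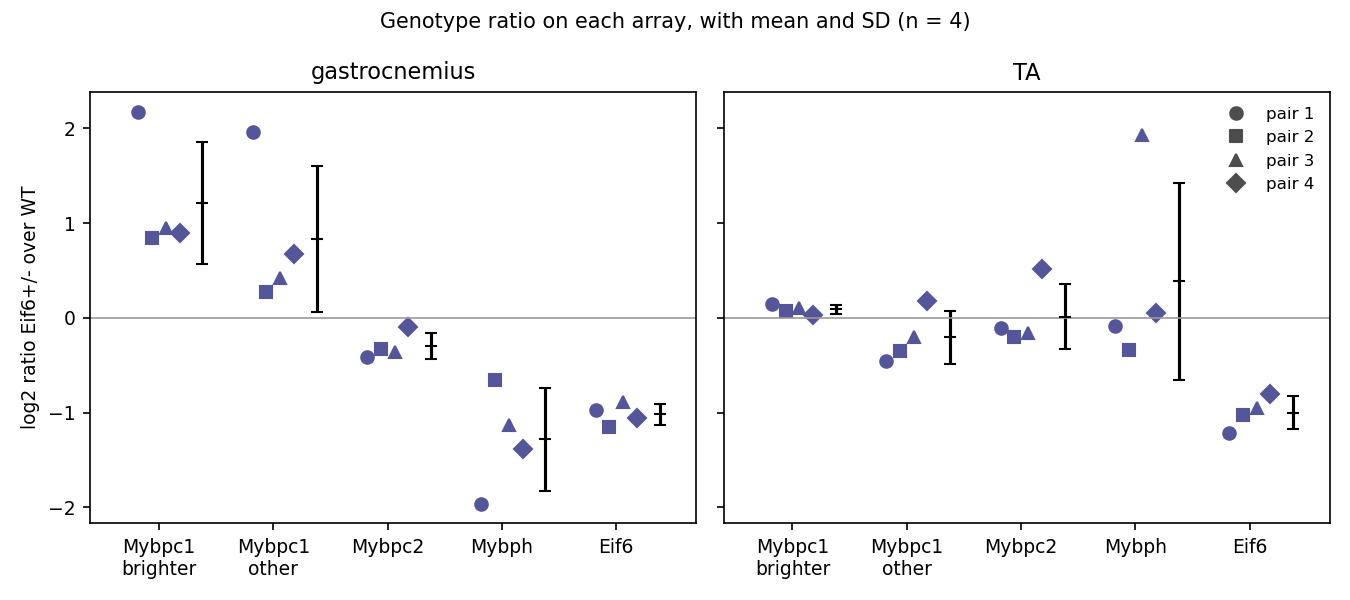
Log2 ratio of Eif6+/- over WT on each array for the Mybpc1 and Mybpc2 probes, Mybph and Eif6; symbols mark pairs 1 to 4, and the bar beside them is the mean with its SD (n = 4). Mybpc1 pair 1 in gastrocnemius (2.18) and Mybph pair 3 in TA (1.93) stand apart, and Eif6 is near -1.0 in both muscles.

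The gastrocnemius pair with the highest Mybpc1 ratio also differed most in slow fibre genes. On pair 1 the 12 slow fibre genes, of which Mb was the brightest, had a log2 ratio of summed intensity of 2.49, against -0.61, 0.26 and -0.04 on pairs 2 to 4; the median of the 12 genes was 2.59, -1.16, -0.27 and -0.06 on pairs 1 to 4. Myh7, the slow myosin heavy chain, gave 5.01, -1.81, -0.26 and -0.34 on the same pairs, and Myh2, the IIA heavy chain, 3.92, 0.52, 1.41 and 0.62. Myh4, the IIB heavy chain, went the other way, with its lowest value on pair 1 (-0.15, 0.62, 0.54 and 0.41). Mybpc1 was therefore above 0 on pairs where the slow fibre sum was below 0 as well as on pair 1. In TA the slow fibre sum was below 0 on all 4 pairs (-0.06, -0.45, -0.40 and -1.17) while the Mybpc1 ratios lay within 0.03 to 0.14 on the brighter probe and below 0 on 3 of 4 pairs on the other. On the 4 gastrocnemius pairs the summed fat cell markers gave -0.49, -0.11, -0.42 and -1.40 and the summed leukocyte markers -1.01, -0.66, -2.08 and -0.47. Summed smooth muscle markers gave -0.29, -0.12, -0.79 and -0.20 and red blood cell markers -0.02, -0.70, -0.90 and -0.17, and connective tissue gave -1.36 on pair 3. The sum for regenerating fibres, of which Myh8 was the brightest, was above 0 on all 4 pairs, but the median of its 4 genes was below 0 on pairs 1 and 3. The part of fibre or tissue make-up in the Mybpc1 ratio was not tested. In bulk muscle, fewer fibres of a type and less RNA per fibre cannot be told apart.

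**Figure D3:**
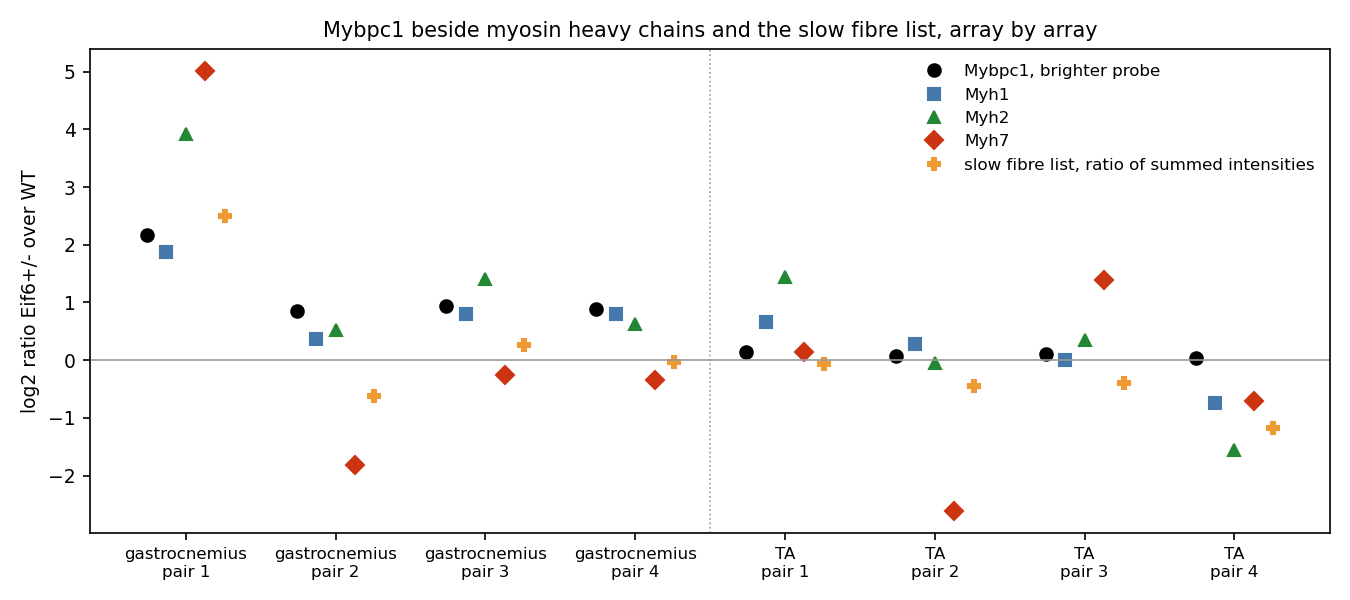
Log2 ratio of Eif6+/- over WT on each of the 8 arrays for the brighter Mybpc1 probe, the heavy chain genes Myh1, Myh2 and Myh7, and the summed intensity of the slow fibre list. Gastrocnemius pair 1 is highest for these 5 measures, though not for Myh4, which is not drawn, and Mybpc1 is above 0 on the other 3 gastrocnemius pairs while Myh7 is below 0.

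The genes nearest to Mybpc1 over the 8 log2 ratios, by root mean square difference among 12200 other genes kept in both muscles, were Ppara, a nuclear receptor that drives fatty acid oxidation genes (0.394), Myh1, the IIX myosin heavy chain (0.399), Foxo6 (0.413), the acyl-CoA thioesterase gene Acot11 (0.414) and Magix (0.414). The median of all genes was 0.955. Myh1 gave 1.87, 0.36, 0.81 and 0.80 in gastrocnemius (mean 0.96 ± 0.64, SD, n = 4; adjusted p = 0.0520) and 0.66, 0.29, -0.00 and -0.74 in TA (mean 0.05 ± 0.59; adjusted p = 0.888). Its TA pairs thus spread far wider than those of the brighter Mybpc1 probe (SD 0.05), while the other Mybpc1 probe had an SD of 0.28 in TA. Without gastrocnemius pair 3 or pair 4 the Myh1 mean was 1.01 in each case, but the limma adjusted p became 0.169 and 0.172. The genes nearest to Mybpc2 were Dop1b (0.136), the ubiquitin ligase gene Wwp1 (0.142), Amigo1 (0.151), the homeobox gene Six2 (0.154) and Ttyh2 (0.155), beside a median of 0.390. Likeness here is a description of ratios on these arrays.

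Whether the family differs in level between the muscles was asked with the mean of both channels on each array, which does not use the ratio of the dyes. In this mean of both genotypes, Mybpc1 was lower in gastrocnemius than in TA. The array means of its brighter probe were 14.01, 14.29, 13.72 and 14.64 in gastrocnemius and 14.94, 15.05, 14.84 and 14.96 in TA. The muscles did not overlap, and the difference was -0.78 on the log2 scale (SE 0.16), or 1.72-fold higher in TA (adjusted p = 0.00870). The other probe gave -0.60 (SE 0.16; adjusted p = 0.0283), with overlapping muscles.

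Mybpc2 showed the reverse order. Its array means were 16.41, 16.42, 16.34 and 16.38 in gastrocnemius and 16.15, 15.93, 16.15 and 15.94 in TA, again without overlap. The difference was 0.35 (SE 0.07), or 1.27-fold higher in gastrocnemius (adjusted p = 0.00602); it did not pass with loess within arrays alone (0.23). Of the 2 members tested, 1 was called higher and 1 lower, where 32.9% of 12781 genes were called in this comparison, 13.3% higher and 19.6% lower in gastrocnemius.

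Split by genotype, both differences kept their sign but were much smaller in Eif6+/- channels than in WT channels. In WT channels alone Mybpc1 differed by -1.34, or 2.54-fold higher in TA, and Mybpc2 by 0.51, or 1.42-fold higher in gastrocnemius, without overlap. In Eif6+/- channels alone the differences were -0.22 and 0.19, with overlap for both. The other Mybpc1 probe gave -1.12 in WT channels, without overlap, and -0.08 in Eif6+/- channels, with overlap. These per-genotype values contain the ratios that chose the family, so they are description only.

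The myosins set the scale of this muscle comparison. Myh7 was 23.7-fold higher in gastrocnemius than in TA (log2 difference 4.57, adjusted p = 0.00115), Mybph 5.35-fold higher (2.42, adjusted p = 0.000997) and the IIX gene Myh1 lower (-0.99, adjusted p = 0.00214), without overlap of the muscles. The IIA gene Myh2 was higher in gastrocnemius (1.21, adjusted p = 0.0666), with overlap. The IIB gene Myh4, the fastest heavy chain, differed by 0.12 (adjusted p = 0.251). Of the 12 slow fibre genes 8 were higher and 1, Mb, was lower in gastrocnemius, with a median of 1.69 beside -0.02 for all genes, among them Myl2 (5.28) and Tnnt1 (2.89). The gene for the slow form of myosin-binding protein C was higher in TA in the mean of both genotypes. In that mean it thus lay on the side of Myh1 and Mb and opposite to Myh7 and Myh2. In Eif6+/- channels alone its levels overlapped between the muscles. Of 14 fast fibre genes 3 were higher, 1 was lower and 10 were not called (median 0.09), where 32.9% of all genes were called. Markers of other tissues also differed: 4 of 4 tendon, 5 of 5 myelinated nerve, 3 of 3 smooth muscle, 4 of 5 fat cell and 3 of 5 connective tissue genes kept were higher in gastrocnemius. Their part in the member values was not tested.

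**Figure D4:**
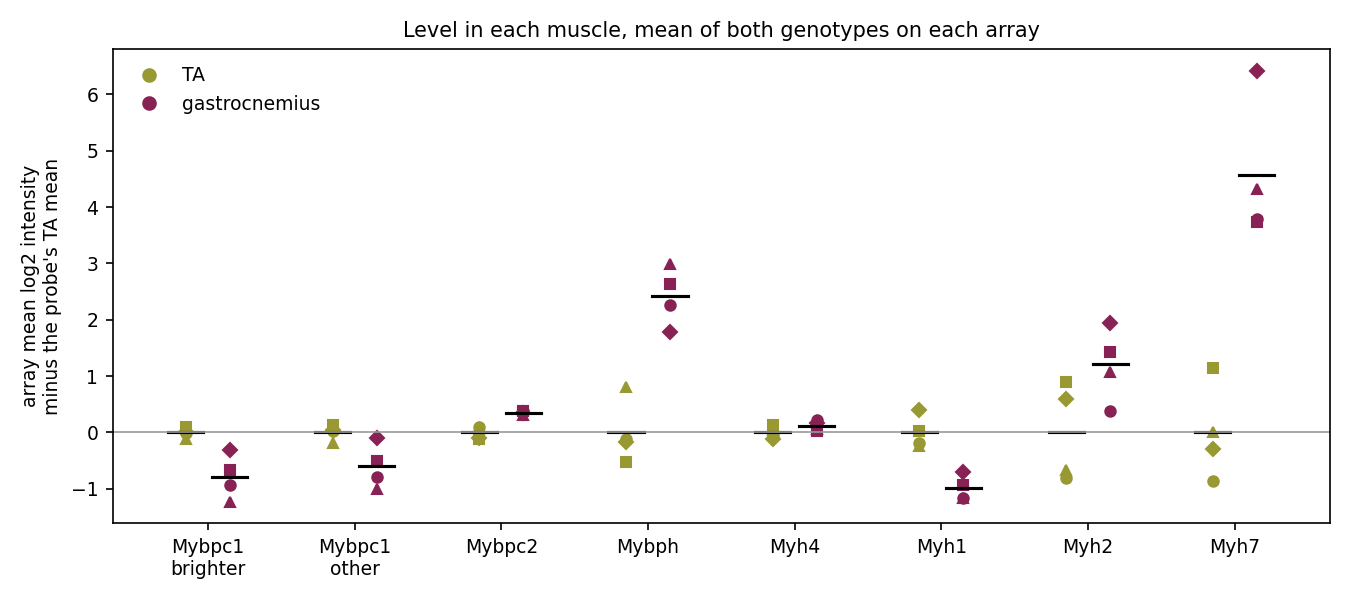
Mean log2 intensity of both channels on each array, less the TA mean of the same probe, for the family members, Mybph and 4 myosin heavy chain genes in TA and gastrocnemius; black bars are means of 4 arrays. The brighter Mybpc1 probe lies below its TA values in gastrocnemius as Myh1 does, while the other Mybpc1 probe overlaps between the muscles. The gastrocnemius means of Mybpc2 and Myh7 lie above their TA means by 0.35 and 4.57.

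The partners of the family were read by list, each beside the share of all genes called. In the gastrocnemius genotype comparison 15.4% of 12608 genes were called (9.88% higher, 5.54% lower, median 0.02), and in TA 16.3% of 12382 (8.98% higher, 7.28% lower, median 0.02). Without gastrocnemius pair 3 or pair 4 the number called in gastrocnemius was 0 by limma (2444 and 2680 genes at an unadjusted p under 0.05), and without TA pair 1 it was 68 in TA, so the list counts below for the genotype comparisons depend on single arrays.

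Among 18 other thick filament genes kept, 2 were higher and 1 lower in gastrocnemius of Eif6+/- mice. The higher ones were Myh1 (0.96) and Myh8 (0.46, adjusted p = 0.0543), and the lower one was Mybph. In TA 2 were higher, Myh4 (0.80 ± 0.25, SD, n = 4; adjusted p = 0.0118) and Myh8 (0.86, adjusted p = 0.0135), and 3 were lower, led by Myh7b (-0.68, adjusted p = 0.0118). The myosin heavy chain genes are near-identical copies of one another in long stretches, and Myh8, the perinatal form, is not known as a main myosin of adult limb muscle; cross-hybridization of its probe was not tested. Of the 12 M-band and myosin assembly genes, Myom3 (0.94, adjusted p = 0.0863) and the myosin chaperone gene Unc45b (0.24, adjusted p = 0.0909) were higher in gastrocnemius. Ckm (-0.37, adjusted p = 0.0579) was lower there, and in TA Myom2 was higher (0.53, adjusted p = 0.0120). The Myom3 mean was 0.55 without pair 1 (limma adjusted p = 0.0670). Without pair 2, pair 3 or pair 4 its limma adjusted p became 0.111, 0.241 and 0.163.

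Of the 12 slow fibre genes none was called in gastrocnemius (8 above 0, median 0.25), whereas in TA 7 were lower and 0 higher (median -0.50), led by Tnnt1 (-0.90, adjusted p = 0.0236) and Tnni1 (-0.80, adjusted p = 0.0245). Without gastrocnemius pair 1, 4 of the slow fibre genes were called lower in gastrocnemius as well. Markers of other tissues were also lower in TA of Eif6+/- mice: 3 of 3 red blood cell (median -0.72), 4 of 5 myelinated nerve (-0.37) and 2 of 3 smooth muscle genes (-0.52), while 2 of 5 fat cell genes were higher (0.51). In gastrocnemius 2 of 5 fat cell (-0.31), 1 of 2 leukocyte (-0.96) and 1 of 3 smooth muscle genes (-0.22) were lower. Of 14 fast fibre genes 1 was higher and 3 lower in gastrocnemius, and 2 were higher and 2 lower in TA. Of 27 thin filament and Z-disc genes 1, the titin cap gene Tcap (0.68, adjusted p = 0.0356), was higher and 4 were lower in gastrocnemius, among them the actin capping gene Capzb (-0.75, adjusted p = 0.0286). In TA 2 were higher and 8 lower, and in the muscle comparison 9 were higher and 2 lower in gastrocnemius. Of 8 cardiac and developmental sarcomere genes kept, 1 was higher and 1 lower in each genotype comparison, Myh8 and Tnnt2.

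Cardiac myosin-binding protein C is phosphorylated by protein kinase A, calcium/calmodulin-dependent kinase II, protein kinase D, protein kinase C and ribosomal S6 kinase, and phosphatases 1 and 2A reverse it. Of 23 genes of these enzymes, all kept, 1 was higher and 2 lower in gastrocnemius of Eif6+/- mice (median -0.03). The lower ones were Ppp1ca, a catalytic subunit of phosphatase 1 (-0.31 ± 0.05, SD, n = 4; adjusted p = 0.0510), and the S6 kinase gene Rps6ka3 (-0.28, adjusted p = 0.0623). In TA 3 were higher, among them the protein kinase C gene Prkca (0.34, adjusted p = 0.0358), and 2 lower. Between the muscles 3 were higher and 6 lower in gastrocnemius, from Prkar2b (1.17, adjusted p = 0.00717) to Ppp1cb (-0.36, adjusted p = 0.00202). No phosphorylation was measured, and Mybpc3, the gene for the cardiac form, was not well above background on any array.

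Of 40 genes outside the family (Eif6, Mybph, the 4 myosin heavy chains and those taken from the lists, without the nearest genes), 0 differed in genotype ratio between the muscles by limma (9 at an unadjusted p under 0.05), so no difference between the muscles in the ratios of these genes passed the test.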

How the data were processed

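For each muscle, 4 Eif6+/- mice were set against 4 WT mice, giving 8 two-colour Agilent arrays. Per the file headers, the authors deposited the scanner software's spot intensity in each channel, with local background, not normalized, and a processed intensity that the software had background-subtracted and dye-normalized. The authors also deposited a table of log2 ratios of Cy5 over Cy3, which matched loess-normalized uncorrected intensities (r of 0.999961 to 0.999996, column medians -0.00441 to 0.00375). The study's methods name Cy3 labelling only; directions here follow the labels.

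Median intensities were corrected with normexp (offset 50), normalized by loess within arrays (control spots at weight 0) and by quantiles across 16 channels. Control and outlier spots were left out. Medians were used because the files give no mean spot intensity, and no spot was marked as saturated. Detection above background held for 38.8% to 48.6% of probes, depending on array and channel. A probe was kept for a muscle when each of its 4 arrays detected it in either channel. Accessions were matched to names of assembly GRCm38.p6 (27235 of 55681 probes), and a gene was read from its brightest probe. Tests used limma 3.58.1 (lmFit, eBayes; R 4.3.3) with Benjamini-Hochberg adjustment over kept probes and a threshold of 0.1, and were checked on simulated data. Figures were drawn with matplotlib 3.10.9. Sequences came from RefSeq.

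Members and lists were chosen with earlier results of these data known. Named genes were the members, Eif6, Mybph, Mybphl and 4 myosin heavy chains, up to 2 increases and 2 decreases per list and comparison among called genes with 1 sign on all arrays, and the 5 nearest genes per member. The labels do not say whether both muscles came from the same mice. The methods' SAM was run as an alternative. Others were other normalizations, background corrections, filters, thresholds and tests, each array left out, single channels and other probes.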

Additional observations from a re-analysis of the deposited data

Results flagged for a closer look

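Of 30 groups of 4 values (genotype log2 ratios, and levels by genotype for the members), 3 held a value far from the other 3. The rule used marks about 1 in 20 groups by chance, but the count cannot be set against that rate. The groups are not independent, because each member's ratio is made from its levels. The Mybpc1 and Mybpc2 ratios are also values on which the family was chosen, so these marks are description only. The Mybpc1 log2 ratio on gastrocnemius pair 1 was 2.18, while the other pairs lay between 0.84 and 0.95; without it the mean was 0.89. The Mybpc2 log2 ratio on TA pair 4 was 0.52, while the others lay between -0.20 and -0.11; without it the mean was -0.16. The Mybph log2 ratio on TA pair 3 was 1.93, while the others lay between -0.34 and 0.05; without it the mean turned from 0.39 to -0.13.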

How the results depend on the processing

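The sign of both members' difference in level between the muscles was the same under every alternative. For Mybpc1 (-0.78) it ranged from -1.34 in WT channels to -0.22 in Eif6+/- channels, both description only, and with 1 array left out it ran from -0.94 to -0.63. For Mybpc2 (0.35) it missed the threshold with loess within arrays alone (0.23, adjusted p = 0.161), was 0.19 in Eif6+/- channels as description, and ran from 0.31 to 0.38 with 1 array left out. The mean Mybpc1 ratio in gastrocnemius ran from 0.89 to 1.34 with 1 pair left out, and that of the other probe from 0.46 to 1.02. In TA (0.09) it was 0.00217 with loess alone or with Aquantile, 0.0160 in the authors' deposited values and -0.21 with the other probe, which reverses the sign; with 1 pair left out it ran from 0.07 to 0.11. The mean Mybpc2 ratio ran from -0.37 to -0.26 in gastrocnemius and from -0.16 to 0.08 in TA with 1 pair left out. Genes called in the gastrocnemius genotype comparison (1945, 64.1% higher) numbered 1005 with Agilent's processed signals (91.2% higher, the median of all genes shifting to 0.12), 628 at an adjusted p under 0.05, 3230 with SAM, 978 with the methods' t-test adjusted and 3051 with it unadjusted (p under 0.05, an alternative chosen after seeing the data), and 0 to 1769 with 1 pair left out. Genes called in TA (2014, 55.2% higher) numbered 1211 with normexp at offset 0, 773 with Agilent's processed signals (79.0% higher), 837 at an adjusted p under 0.05, 865 with the methods' t-test adjusted, and 68 to 2036 with 1 pair left out. Genes called between the muscles (4211, 40.5% higher) numbered 2321 with loess alone (57.2% higher), 2697 in WT channels, 2092 in Eif6+/- channels, and 2995 to 3891 with 1 array left out. Taking the pair number as a replicate block gave 4163 genes, with an adjusted p of 0.00716 for Mybpc1 and 0.0149 for Mybpc2; same-numbered arrays of the 2 muscles correlated by -0.356 to 0.0895 in ratio and -0.266 to 0.236 in mean level, so the numbers were not used as pairs. No difference in ratio between the muscles among the 40 genes outside the family passed under any alternative. The 7 slow fibre genes lower in TA became 1 without pair 1, 4 without pair 2 and 4 with Agilent's processed signals. For these 40 genes, no value that passed the threshold changed sign under any alternative. Some that did not pass did: with pair 1 left out Myh7 in gastrocnemius went from 0.65 to -0.80, with pair 2 left out Myh7 in TA from -0.44 to 0.28, and with pair 3 left out Mybph in TA from 0.39 to -0.13. The means of Myh1 and Myh2 in TA (each 0.05) also changed sign with single pairs left out, as did the Myh4 difference between the muscles in Eif6+/- channels.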
